A study of Mus musculus with 4 samples.

Results

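Very wide accessible regions are the stretches of open chromatin of 2500 bp or more in the peak list of mouse hair follicle stem cells, and 1524 of the 74777 regions in the list were of this kind. They were selected on measured width alone (end minus start) on the 19 autosomes, after leaving out regions in dense stretches of 40 or more peaks joined at gaps under 12500 bp. The left-out stretches held 1663 regions, of which 114 were as wide. Each region was named by the protein-coding genes that it overlapped or lay within 1 kb of. Width chose these regions, so their widths and the share of each gene they cover are descriptions.

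Accessibility was measured by ATAC-seq, an assay that tags open DNA with the transposase Tn5 and sequences the tagged fragments, in cells from back skin of female mice at postnatal day 30. Back skin was digested with collagenase and trypsin, and cells were sorted for a nuclear green fluorescent reporter, CD34 and CD49f, without Sca-1. The control carried K14-H2BGFP and Foxc1 fl/fl, and the knockout carried K14-H2BGFP, K14Cre and Foxc1 fl/fl, so both share the floxed alleles and the reporter, and the keratin 14 promoter drives both reporter and Cre. Each genotype was 1 library sequenced in 2 runs, and all 4 runs share 1 list of coordinates with no score, read count or genotype. Nothing below therefore compares knockout with control, no region has a value per sample, the read depth is unknown, and no test was made.

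Nucleosomes normally cover most of the genome, and Tn5 reaches DNA where they are displaced. A typical accessible site is a promoter or an enhancer about as long as a few nucleosomes. Longer open stretches are known at strongly transcribed short genes, where the passage of RNA polymerase opens the gene body, at large CpG islands and at clusters of enhancers. Hair follicle stem cells reside in the bulge of the follicle, rest for long periods and share many basal keratinocyte genes, among them those for keratins 5 and 14 and for the adhesion to the basement membrane.

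Promoter sequences from 6 wide regions are given as examples, each a small part of its region. Shown are the 250 bases before the listed start of 6 genes whose start lay in a wide region. They are the widest from 6 gene groups whose 250 bases hold no part of any annotated gene. The sequences are from RefSeq, build GRCm38.p6. Capitals mark matches on either strand to 9 short motifs (AP-1, CRE, CArG box, GC box, forkhead, TATA box, CCAAT box, heat shock and TEAD). Their letters, except those of the CArG box, are given with their shares further on.
Lsmem1 promoter, chr12:40199316-40199565, minus strand: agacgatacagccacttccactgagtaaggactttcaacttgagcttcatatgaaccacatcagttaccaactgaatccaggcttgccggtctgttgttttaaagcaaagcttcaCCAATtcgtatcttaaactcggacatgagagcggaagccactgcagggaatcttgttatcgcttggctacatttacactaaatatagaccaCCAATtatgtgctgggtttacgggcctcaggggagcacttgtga
Zfp36 promoter, chr7:28379229-28379478, minus strand: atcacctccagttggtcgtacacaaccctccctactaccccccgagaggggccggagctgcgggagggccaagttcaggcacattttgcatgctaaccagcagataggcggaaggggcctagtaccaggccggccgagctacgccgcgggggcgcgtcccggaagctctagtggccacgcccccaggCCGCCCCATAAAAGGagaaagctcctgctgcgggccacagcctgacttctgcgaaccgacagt
Klf6 promoter, chr13:5861239-5861488, plus strand: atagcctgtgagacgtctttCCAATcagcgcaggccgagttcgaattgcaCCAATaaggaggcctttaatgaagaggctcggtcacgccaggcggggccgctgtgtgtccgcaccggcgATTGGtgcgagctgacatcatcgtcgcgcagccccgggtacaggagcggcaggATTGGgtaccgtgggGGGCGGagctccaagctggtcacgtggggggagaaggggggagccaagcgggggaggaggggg
Dnajb1 promoter, chr8:83607925-83608174, plus strand: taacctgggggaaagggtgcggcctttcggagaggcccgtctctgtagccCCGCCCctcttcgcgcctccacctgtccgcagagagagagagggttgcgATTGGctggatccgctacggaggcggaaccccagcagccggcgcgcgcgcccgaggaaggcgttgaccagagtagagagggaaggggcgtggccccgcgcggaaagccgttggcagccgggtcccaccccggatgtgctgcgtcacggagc
Id3 promoter, chr4:136143572-136143821, plus strand: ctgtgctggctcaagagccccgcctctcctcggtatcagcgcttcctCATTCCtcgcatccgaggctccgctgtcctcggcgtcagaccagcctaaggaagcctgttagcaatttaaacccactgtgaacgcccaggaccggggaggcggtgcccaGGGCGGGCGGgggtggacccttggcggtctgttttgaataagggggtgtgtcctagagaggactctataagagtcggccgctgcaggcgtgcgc
Dusp1 promoter, chr17:26508473-26508722, minus strand: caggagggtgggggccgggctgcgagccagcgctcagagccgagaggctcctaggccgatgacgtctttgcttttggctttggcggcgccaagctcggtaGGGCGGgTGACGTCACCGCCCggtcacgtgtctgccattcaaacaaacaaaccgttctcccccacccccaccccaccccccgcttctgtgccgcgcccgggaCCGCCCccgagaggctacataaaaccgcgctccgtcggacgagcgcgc
The sequence of Zfp36 held a GC box and a CArG box that overlap, the second being the site bound by serum response factor. That of Klf6 held 4 CCAAT boxes and 1 GC box, that of Dusp1 a CRE and 3 GC boxes, and that of Lsmem1, a neighbour of Ifrd1 in the same region, 2 CCAAT boxes and no other of the 9 motifs. Over the 300 bases of the table (250 before and 50 after the start), GC content ran from 45.3% at Lsmem1 to 70.7% at Dnajb1. The ratio of observed to expected CpG dinucleotides ran from 0.519 at Lsmem1 to 0.981 at Dnajb1.

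The wide regions made up 2.17% of the 70349 autosomal regions outside dense stretches, and 9.35% of their bases (5209 of 55713 kb). Their median width was 2974 bp (quartiles 2679 and 3520 bp), against 582 bp for the 68825 narrower regions. Widths fell off steeply, with 736 regions of at least 3000 bp, 215 of at least 4000 bp, 97 of at least 5000 bp and 17 of at least 10000 bp. The first regions inside the minimum were 2500 bp at Mmd, 2501 bp at Mindy3 and 2501 bp at Insr. The last outside were 2498 bp at Ccne2, 2498 bp at no gene and 2497 bp at 4930505A04Rik. The share of wide regions among a chromosome's regions ran from 1.61% on chromosome 11 to 2.89% on chromosome 19.

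**Figure D1:**
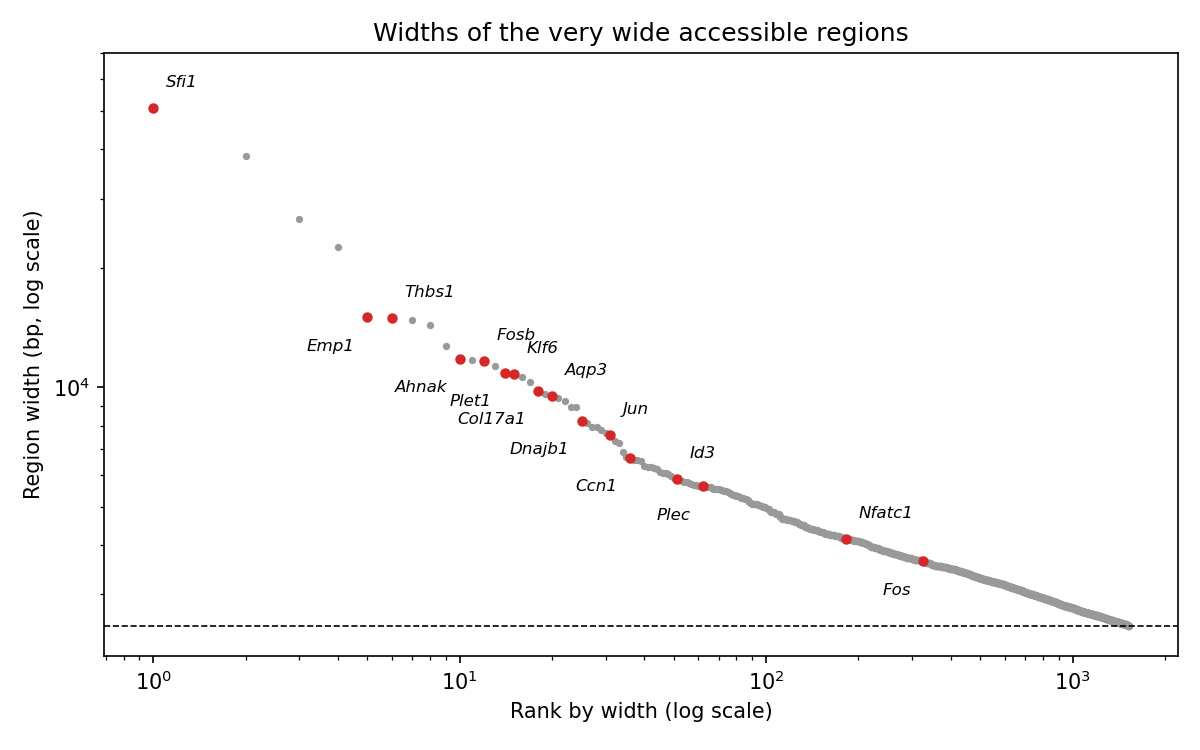
Width of each of the 1524 regions (y axis, bp, log scale) against its rank by width (x axis, log scale), with some of the named genes in red and the minimum of 2500 bp as a dashed line. A handful of regions stand far above the rest, from 50760 bp at Sfi1 down to 9537 bp at Aqp3 in twentieth place, and 215 reach 4000 bp.

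The 20 widest regions mixed epithelial genes, early response genes and repeated loci. Sfi1, which encodes a centrosome protein, had the widest region, of 50760 bp on chromosome 11 from 3149420 to 3200179, and a second one of 22612 bp separated from it by 184 bp. The next in rank, 38484 bp on chromosome 9 from 2999928 to 3038411, named no gene. Both lie near the first sequenced bases of their chromosomes, next to the long unsequenced gap with which mouse chromosomes begin in this build. Of the 20 widest regions, 4 began below position 3.5 Mb, as did 31 of all 1524 (2.03%) and 428 of the narrower regions (0.622%). A further 3 of the 20 widest lay at the predicted genes Gm7592, Gm38510 and C130026I21Rik on chromosome 1, in a stretch of 35 peaks that fell just short of the 40 at which stretches were left out. Gm38510 was named by 11 wide regions in all and C130026I21Rik by 6. Whether reads of repeated sequence contribute to these regions was not tested.

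Several epithelial genes were among the other widest regions. Emp1, which encodes an epithelial membrane protein, had regions of 15036 and 9624 bp on chromosome 6 from 135362053 to 135377088 and from 135377365 to 135386988. Only 276 bp separated them, and together they covered 98.7% of the gene. Thbs1, the gene of the matrix glycoprotein thrombospondin 1, had 14967 bp on chromosome 2 from 118113655 to 118128621. Plet1, a marker of epithelial progenitors, had 10885 bp, and Sdc4, the gene of the heparan sulfate proteoglycan syndecan 4, had 10305 bp. Aqp3, which encodes the water and glycerol channel of basal keratinocytes, had 9537 bp, and the whole gene lay inside. Ahnak, which encodes a giant scaffold protein, had 11810 bp over its start. Col17a1, the gene of the hemidesmosome collagen that anchors bulge stem cells, had 9809 bp and 5752 bp, again separated by 276 bp. Ifrd1, which encodes a transcriptional coregulator, lay wholly in a region of 26610 bp, rank 3 by width.

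Nuclear non-coding RNA genes were also spanned. Neat1, the RNA scaffold of paraspeckles, lay on chromosome 19 from 5824708 to 5845480 and had 3 wide regions of 6560, 3093 and 14365 bp, which covered 83.8% of it. Its neighbour Malat1, a second abundant nuclear RNA, had 2, of 5679 and 2787 bp, which covered 45.6%. Malat1 was chosen after its values were seen. In all, 359 of the 1524 regions (23.6%) overlapped a gene that is not protein-coding. A region of 6077 bp on chromosome 17 overlapped Rn18s-rs5, an annotated copy of ribosomal RNA sequence, and named no protein-coding gene.

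Immediate early genes, which are switched on by growth factors or stress without new protein synthesis, had the highest named share of the 30 gene lists examined. Of 41 such genes, 25 (61.0%, exact 95% interval 44.5 to 75.8, counting error only) were named by a wide region, against 6.41% of all autosomal protein-coding genes (1325 of 20665). This list and those below were chosen with earlier results of these data known, so such contrasts are descriptions. Longer genes offer more ground to a region, from 3.44% named among genes under 5 kb to 13.1% among genes of 100 kb or more. These 41 genes are short, with a median of 5297 bp, and genes with the same mix of lengths were named in 4.78% of cases. This and the like shares below come from all genes, open or not. Among those are 1104 olfactory and 352 vomeronasal receptor genes, mostly short, of which 1079 and 334 had no peak. Lists were not compared with genes that have a peak. The median of the widest peak at each gene was 3016 bp in the list and 948 bp over all genes.

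Members of the AP-1 transcription factor, a dimer of FOS and JUN proteins, took several of the first places. Fosb had 11665 bp on chromosome 7 from 19299110 to 19310774, Junb 8942 bp on chromosome 8 from 84974097 to 84983038, and Jun 7586 bp on chromosome 4 from 95046686 to 95054271. All 3 genes lay wholly inside their region. Fosl1 followed with 4075 bp, Fos with 3633 bp, Fosl2 with 3270 bp and Jund with 3013 bp. Fos was covered over 93.5% of its length and Jund over 89.3%. All 7 FOS and JUN genes were thus named, and Atf3, a partner of JUN proteins, had 4858 bp.

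Other early factors and RNA-binding proteins followed. Zfp36, whose protein destabilises short-lived messenger RNAs, had 11706 bp on chromosome 7 from 28371947 to 28383652, which also reached the neighbouring gene Plekhg2, and its relative Zfp36l2 had 3472 bp. Klf6, a zinc finger factor, had 10794 bp on chromosome 13 from 5860413 to 5871206, and Klf10 had 3812 bp. Myc had 5345 bp, Egr1 5251 bp and Egr2 3799 bp, the nuclear receptor genes Nr4a2 and Nr4a3 had 3944 and 2739 bp, and Cebpd had 2727 bp. Csrnp1, a nuclear factor gene of 13580 bp, had 3 wide regions of 4968, 4114 and 2820 bp that covered 71.8% of it. Phosphatases that switch off MAP kinases were represented by Dusp1 with 5712 bp and Dusp6 with 2565 bp. The kinase gene Sgk1 had 3769 bp, the clock gene Per1 3724 bp, the survival gene Ier3 3112 bp, and the antiproliferative gene Btg1 had 3016 and 2616 bp.

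The 16 early genes that no wide region named still had peaks, whose widest ran from 999 bp at Zfp36l1 to 2429 bp at Ier2. Among them were Klf4 (2060 bp), Cebpb (2110 bp), Nr4a1 (1227 bp), Socs3 (1719 bp) and Egr3 (1305 bp). None of the 41 genes was without a peak (0). The group therefore held a spread of widths and no gap at the minimum. A total of 8 early genes had a region of at least 5000 bp, and 10 were covered over at least 80% of their length.

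**Figure D2:**
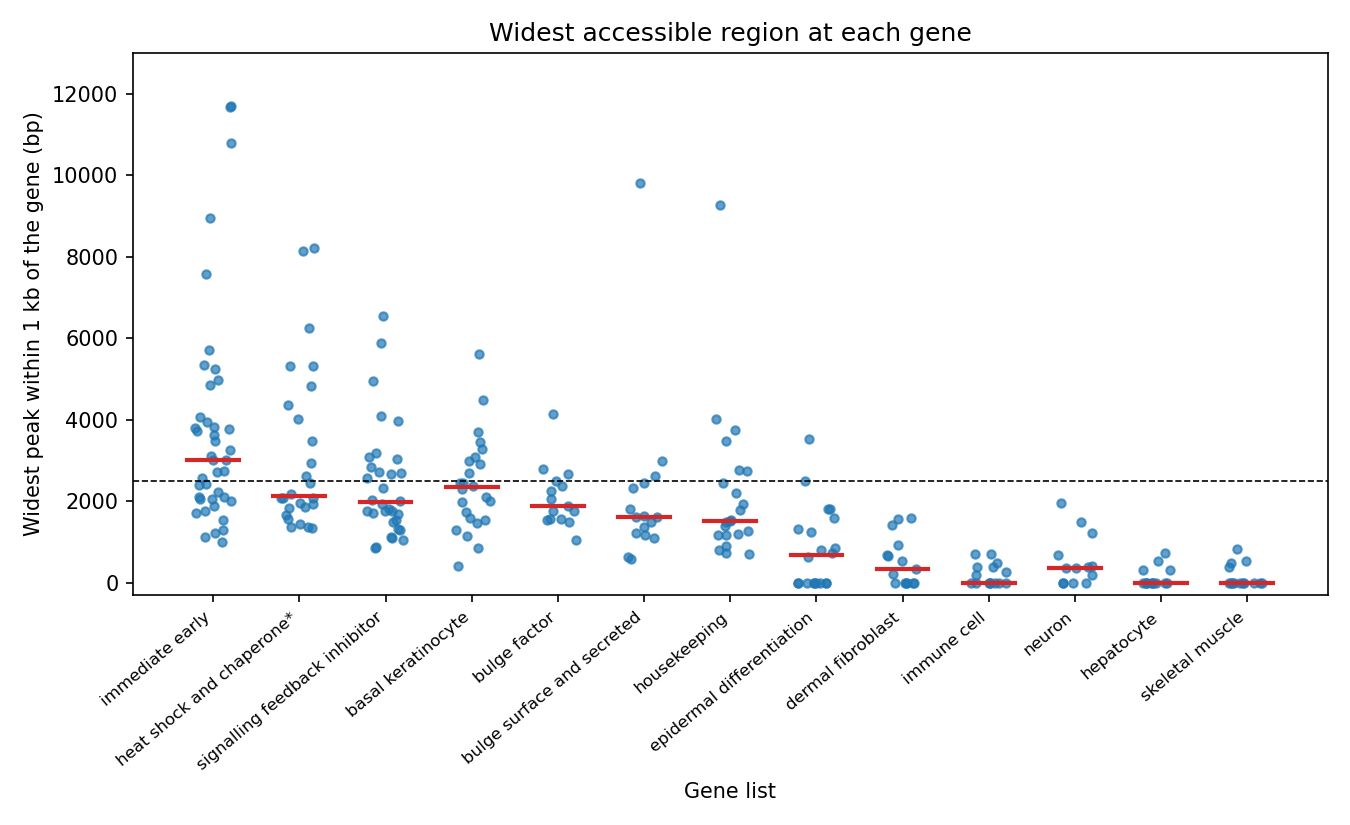
Width in bp of the widest accessible region within 1 kb of each gene (points, 0 where there is none) for 13 gene lists, with the list median as a red bar and the minimum of 2500 bp as a dashed line. Immediate early genes have the highest median, 3016 bp, and immune cell, hepatocyte and skeletal muscle genes have a median of 0.

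Heat shock and chaperone genes, whose proteins fold other proteins and rise with stress, were listed only after the widths had been seen. Of 26 such genes, 11 (42.3%) were named, against 5.13% of genes with the same mix of lengths. The largest were Dnajb1 with 8224 bp, Hspa1b with 8141 bp, Hspa8 with 6264 bp, and a region of 5331 bp shared by the neighbours Hspa1a and Hspa1l. Hsp90aa1 had 4821 bp and Hspb1 4362 bp. The chaperone genes of the endoplasmic reticulum and mitochondria in the list, Hspa5 (1454 bp), Hspa9 (1657 bp), Hsp90b1 (2443 bp), Hspd1 and Hspe1 (2084 bp at both), were below the minimum, as was the regulator gene Hsf1 (1368 bp). Among 22 housekeeping genes 6 (27.3%, against 4.96% for their mix of lengths) were named, among them Actb (4012 bp), Ywhaz (3742 bp) and Ppia (3476 bp). Ribosomal protein genes, which are short and constantly transcribed, were named in 3 of 77 cases (3.90%, exact 95% interval 0.811 to 11), close to the 3.72% of genes with the same mix of lengths.

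Feedback inhibitors of signalling, which are induced by the pathway they restrain, were named in 13 of 32 cases (40.6%), against 5.86% for genes with the same mix of lengths. Tgif1, a repressor of TGF-beta signalling, had 6543 and 3776 bp, and the BMP target gene Id3 had 5878 bp and lay wholly inside. Dusp4 had 4943 bp, and Cish, an inhibitor of cytokine receptors, had 4089 bp. Of 22 dual-specificity phosphatase genes 5 were named (22.7%, against 5.23% for their mix of lengths), Dusp7 with the widest region, 6110 bp, the others being Dusp1, Dusp4, Dusp6 and Dusp8. The lists share Dusp4, Dusp6, Id2 and further members, so their counts are not separate evidence.

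Basal keratinocyte genes were named in 9 of 24 cases (37.5%, exact 95% interval 18.8 to 59.4), against 7.65% for genes with the same mix of lengths. Plec, the gene of the cytoskeletal linker plectin, had 5626 bp inside the gene. Lama3, a laminin chain of the basement membrane, had 3 regions of 4483, 3493 and 3328 bp inside its 249597 bp. The growth factor receptor gene Egfr likewise had 3, of 3282, 2792 and 2536 bp, the narrowest of them over its start. Krt5 had 2915 bp over its start, and Itgb4, the integrin of hemidesmosomes, had 2695 bp. Perp, a desmosome gene, had 3461 bp, Klf5 had 3078 bp, and the epithelial factor gene Grhl2 had 2982 and 2519 bp. Members just short of the minimum included Dst (2446 bp), Trp63 (2440 bp) and Tfap2c (2304 bp), and Ehf had 420 bp.

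Krt14 was named by a region of 3702 bp on chromosome 11 from 100200087 to 100203788. It lay at the lower-coordinate end of the gene and covered 14.4% of it, and no listed start was inside. Krt14 is read on the minus strand, so this is the end at which transcription stops. Of 49 keratin genes Krt14, Krt17 (3520 bp) and Krt5 were named, a share of 6.12% that lies near the 6.41% of all genes and the 4.85% of genes with the same mix of lengths.

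Genes of bulge stem cell identity were named in 3 of 15 cases (20%) for transcription factors and in 3 of 16 (18.8%) for surface and secreted markers, and none of these genes (0) was without a peak. Genes with the same mixes of lengths were named in 8.81% and 7.54% of cases, which lie inside the exact 95% intervals of 4.33 to 48.1% and 4.05 to 45.6%. Nfatc1, which keeps bulge cells quiescent, had regions of 4152 and 3536 bp on chromosome 18 from 80712268 to 80716419 and from 80653879 to 80657414. Tcf7l1, a WNT-responsive repressor, had 2797 bp and Id2 2671 bp, both over the start. The widest peak of the other 12 factors ran from 1045 bp at Nfix to 2495 bp at Lhx2, which missed the minimum narrowly. Foxc1, the deleted gene, had 1556 bp, Sox9 1761 bp, Tbx1 2244 bp and Runx1 1893 bp. Among the surface and secreted markers, Col17a1 (above), the basement membrane protein gene Npnt (3000 bp) and the signal gene Fgf18 (2616 bp) were named. The widest peak of the other 13 ran from 575 bp at Postn to 2449 bp at Lgr5. It was 627 bp at Krt15, 1211 bp at Cd200, and 1480 bp at Cd34, whose protein was used in the sort.

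Families of transcription factors were compared with the 6.41% of all genes and with genes of the same mix of lengths. The Klf family of zinc finger factors was named in 8 of 16 cases (50%, against 5.99%), with Klf6, Klf13 (4230 bp), Klf10 and Klf5 in front. The Iroquois genes were named in 3 of 6 cases (50%, against 4.54%), Irx5 (3366 bp), Irx1 (2648 bp) and Irx4 (2538 bp). The forkhead family was named in 3 of 41 cases (Foxj2, Foxn3 and Foxo3; 7.32%, against 5.39%) and the Sox family in 1 of 18 (Sox12, 4168 bp; 5.56%, against 5.4%), both near the share over all genes. None of 39 Hox genes (0) was named, with an upper limit of 9.03% that includes the 4.25% of genes with their mix of lengths. Zfp genes, most of which encode zinc finger factors, were named in 19 of 388 cases (4.90%, exact 95% interval 2.97 to 7.54, against 6.36%).

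Actin and adhesion genes, which build the cell cortex and its contacts, were named in 10 of 27 cases (37.0%), against 7.05% for genes with the same mix of lengths. Tpm1 had 5529 and 4996 bp, Actg1 5482 and 2682 bp, and the plakophilin gene Pkp3 4562 bp. The widest peak of the 17 members not named ran from 991 bp at Dsc2 to 2474 bp at Actn1. Among these were the contact genes Ctnnb1 (1571 bp), Jup (1903 bp), Pkp1 (1918 bp) and Dsp (2293 bp).

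Lists of genes of other cell types had few named members, and each list holds at most 20 genes. None (0) of 15 dermal fibroblast, 15 immune cell, 14 endothelial cell, 13 neuron, 14 hepatocyte or 14 skeletal muscle genes was named, and the widest peaks of these lists were 1594, 703, 2005, 1960, 742 and 824 bp. Genes with the same mixes of lengths were named in 5.91 to 8.9% of cases, and the exact upper limits of these lists, 21.8 to 24.7%, include such shares. None (0) of 1104 olfactory and 352 vomeronasal receptor genes was named either, with upper limits of 0.334% and 1.04% against 3.57% and 4.56% for their mixes of lengths. Mitf (2753 bp inside the gene) was named among 12 melanocyte genes, Mgst1 (2826 bp) among 11 sebaceous gland genes and Gata3 (3799 bp) among 15 hair shaft and root sheath genes. These shares of 8.33%, 9.09% and 6.67% lie near the 7.41%, 7.73% and 5.85% of genes with the same mixes of lengths. Of 20 epidermal differentiation genes, Sbsn (3520 and 2641 bp) and the transglutaminase gene Tgm1 (2509 bp) were named (10%, against 5.67%), and 9 had no peak of any width.

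**Figure D3:**
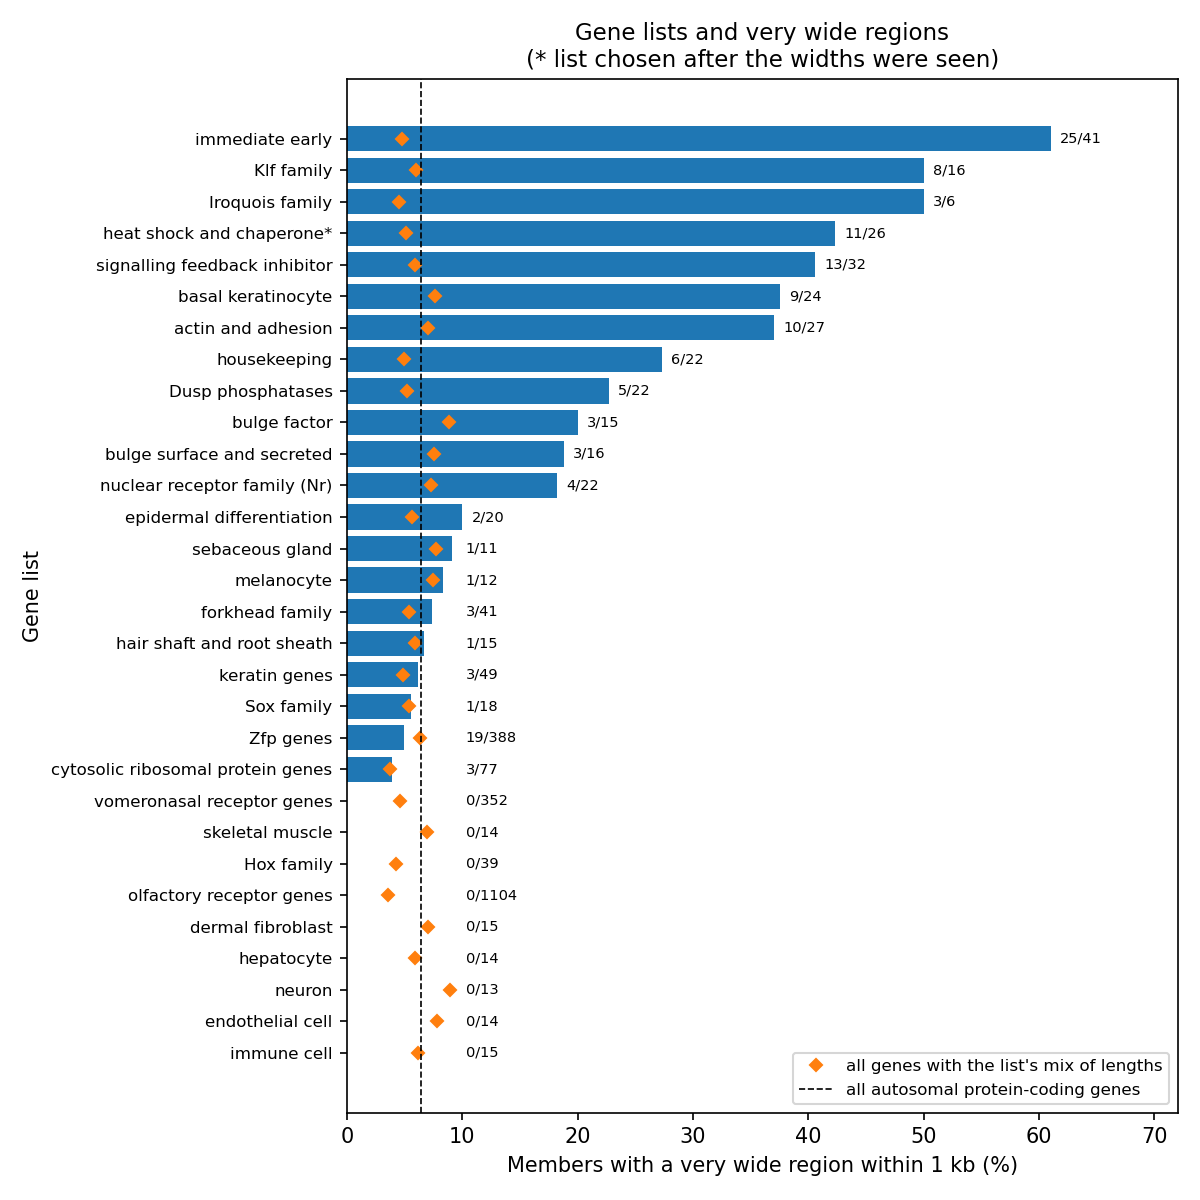
Share of members (%) named by a wide region in 30 gene lists (bars, with counts), beside the share among all genes of the same mix of lengths (diamonds) and among all autosomal protein-coding genes (dashed line, 6.41%). Immediate early genes reach 61.0%, and 9 lists, among them Hox and olfactory receptor genes, have no member named.

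Many wide regions sat on gene starts. A listed start of a protein-coding gene lay in 735 of 1524 regions (48.2%, 95% Wilson interval 45.7 to 50.7, counting error only), against 12.0% of all 70349 regions and 32.4% of those of 1000 to under 2500 bp. Starts came from a RefSeq table that lists 16457 of the 20665 genes (79.6%) and none (0) on chromosome 18, so the shares are lower limits. A longer region holds more starts by its length alone. The share levelled off from 46.4% at 2000 to under 2500 bp to 47.0% at 4000 bp or more, and starts per Mb of region fell from 282 to 110 between these classes. The midpoint lay within 1 kb of a listed start in 41.9% of wide and 12.8% of narrower regions. By class this share was 46.4% at 2000 to under 2500 bp, 46.1% at 2500 to under 3000 bp and 26.0% at 4000 bp or more, so it was not highest in the widest regions. A wide region can hold a start over 1 kb from its midpoint, so width itself can lower this share. By gene bounds, which need no strand and cover all genes, 848 wide regions (55.6%) held an end of a protein-coding gene, 407 (26.7%) lay inside a gene and 269 (17.7%) outside genes. Among regions of 1000 to under 2500 bp these shares were 35.2%, 36.1% and 28.7%, and among all narrower regions 12.3%, 42.5% and 45.2%.

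**Figure D4:**
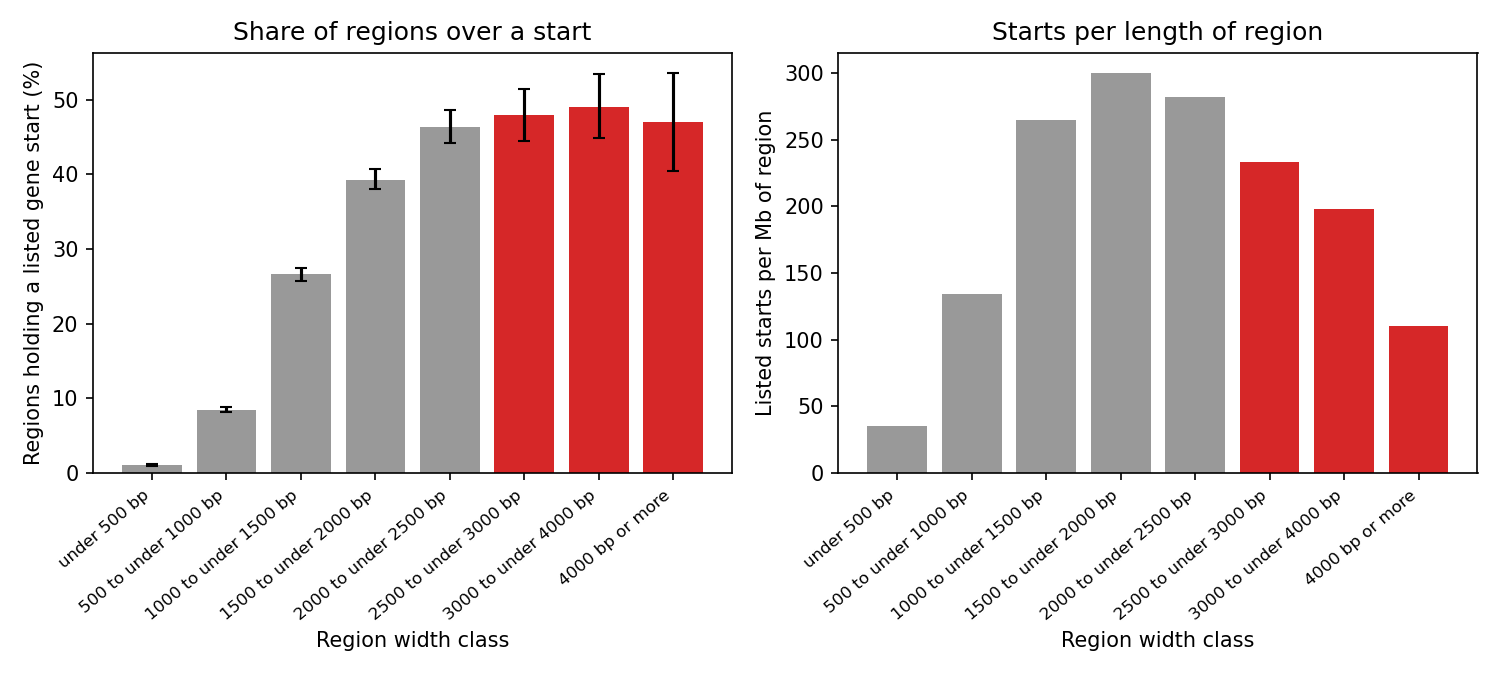
Left, share of regions (%) holding a listed protein-coding gene start in 8 classes of width, with 95% Wilson intervals; right, listed starts per Mb of region in the same classes, with wide regions in red. The share rises from 1.07% under 500 bp to 46.4% at 2000 to under 2500 bp and is nearly level above, and the density falls from 300 per Mb at 1500 to under 2000 bp to 110 at 4000 bp or more.

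Measured from the most upstream listed start that they held, the regions reached farther downstream than upstream. Where a region holds several starts of its gene, this choice lengthens the downstream side. How much it adds was not tested. The downstream reach was not cut at the far end of the gene, so it is not all within the gene. It was longer than the gene at Fosb (7423 bp long) and Aqp3 (5460 bp), and shorter than the gene at Emp1 (20624 bp). Among 650 wide regions over the start of a single gene, the median reach was 1758 bp downstream (quartiles 1315 and 2220 bp) and 1239 bp upstream (quartiles 850 and 1785 bp). The downstream side was the longer in 422 of them (64.9%, 95% Wilson interval 61.2 to 68.5), and in 63.4% of 4930 regions of 1000 to under 2500 bp. Among the 37 regions of at least 5000 bp it was the longer in 31 (83.8%, 95% Wilson interval 68.9 to 92.3), with medians of 3978 bp downstream and 1885 bp upstream. Emp1 was open for 14157 bp downstream and 878 bp upstream, Fosb for 10935 and 729 bp, Ahnak for 10158 and 1651 bp, Klf6 for 9717 and 1076 bp, and Aqp3 for 8765 and 771 bp. Ccn1, which encodes a secreted target of YAP, was open for 5746 and 900 bp. Junb (4651 and 4290 bp) and Sfn (4052 and 3631 bp), the gene of the epithelial adaptor stratifin, were open nearly alike on both sides. Atf3 (930 bp downstream, 3927 bp upstream) and Krt5 (487 and 2427 bp) were open mostly upstream.

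**Figure D5:**
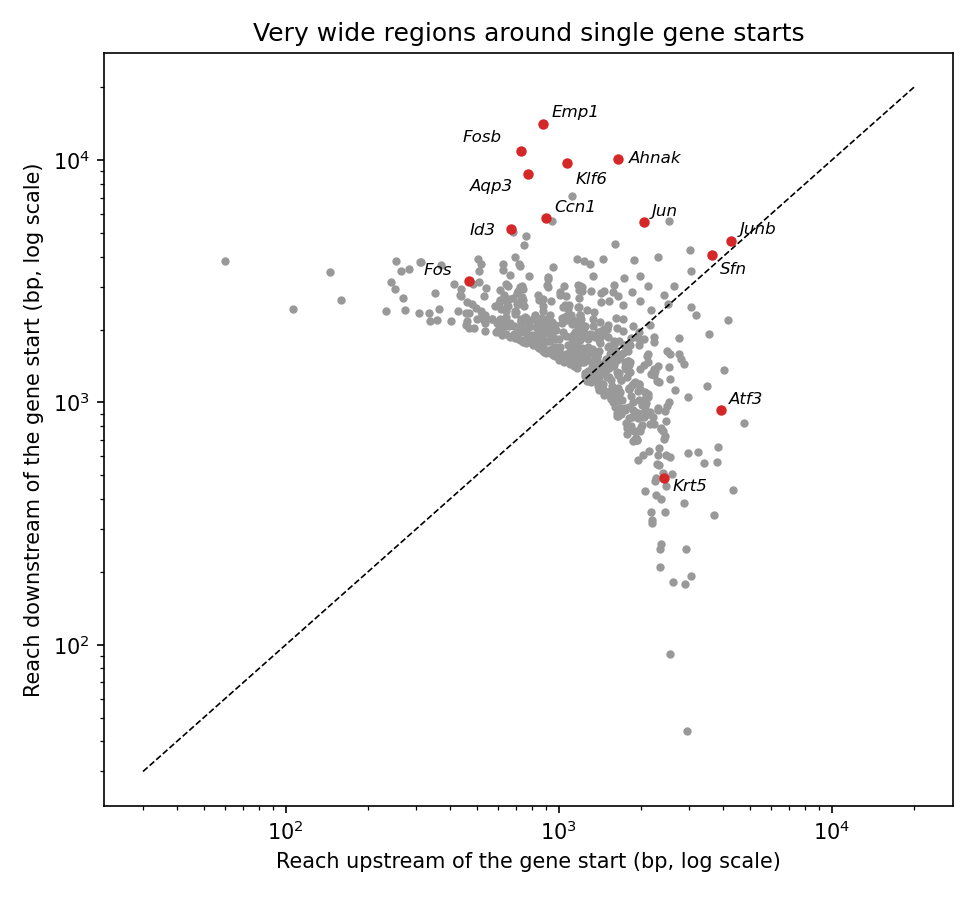
Reach of 650 wide regions downstream (y axis) and upstream (x axis) of the most upstream listed start of a single gene, in bp on log scales. The dashed line marks where both are equal. Of these regions 64.9% lie above the line, Emp1 and Fosb farthest among those named, and Atf3 and Krt5 lie below it.

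Short genes could be spanned whole. Wide regions covered 46 protein-coding genes from end to end and 70 over at least 80% of their length, and 59 of these 70 were under 5 kb long. Beside the early and heat shock genes above, they included Aqp3, Sfn, Ccn1 and the cytokine receptor gene Tnfrsf12a (5054 bp). Most named genes had 1 wide region (1176 of 1325), 130 had 2, 10 had 3 and 9 had 4 or more. Beside the 2 predicted genes on chromosome 1, the last group included Aopep with 7, Cd44 with 5, and Ndrg1, Sgms1, Sh3rf1 and Tfap2b with 4 each. Aopep encodes an aminopeptidase, and its 7 regions of 2685 to 4539 bp covered 6.69% of 361204 bp, none of them (0) over a listed start. Cd44, the hyaluronan receptor gene, was covered over 16.9% of 90529 bp. Ndrg1, a stress-induced gene, was covered over 43.0% of 40324 bp, and Tfap2b, which encodes an AP-2 factor, over 36.5% of 29938 bp.

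Of the regions over starts, 79 of 735 (10.7%) held starts on both strands, against 10.4% of regions of 1000 to under 2500 bp. The widest were those of Hspa1a with Hspa1l (5331 bp), of Thoc6, Hcfc1r1 and Tnfrsf12a (5054 bp), and of Pawr with the predicted gene Gm40755 (4577 bp). The imprinted pair Peg3 and Usp29 shared a region of 3862 bp. These were chosen after their values were seen.

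CpG content was compared between promoters in wide regions and those under other peaks. Median GC content of the 300 bases around the start was 64.7% for 819 genes whose start lay in a wide region (4.98% of the 16457 with a listed start), 62.0% under peaks of 1000 to under 2500 bp, 59.3% under narrower peaks and 49.7% where no peak covered the start. The median ratio of observed to expected CpG was 0.793, 0.804, 0.732 and 0.228 in the same order. With a GC content of at least 55% and a ratio of at least 0.6, a common definition of CpG-rich sequence, 70.2% of promoters in wide regions qualified, 69.7% under peaks of 1000 to under 2500 bp, 57.0% under narrower peaks and 15.4% of those under no peak.

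Short motifs were counted on both strands of the same 300 bases. The GC box (GGGCGG), bound by SP and KLF factors, was present in 75.5% of promoters in wide regions, 70.1% under peaks of 1000 to under 2500 bp and 47.9% of all 16431 promoters searched. The AP-1 motif (TGANTCA) was present in 7.45%, 4.45% and 7.24%, the forkhead motif (TGTTTAC) in 3.30%, 2.12% and 2.95%, the heat shock motif (GAANNTTC) in 6.23%, 5.12% and 7.26%, and the TATA motif (TATAAA) in 6.47%, 6.17% and 13.5%. The CRE (TGACGTCA) was present in 2.56%, 4.0% and 2.44%, the CCAAT box, searched by those letters, in 36.9%, 41.8% and 38.9%, the TEAD motif (GGAATG) in 12.3%, 11.2% and 13.2%, and the CArG box in 1.47%, 1.09% and 1.43%. Of the 17 early genes with a listed start in a wide region, 14 held a GC box, 4 a TATA motif, 2 a CArG box, 1 a CRE and none (0) an AP-1 motif. The shorter CRE core (TGACG), which every CRE contains, was present in 9 of these 17 and in 24.6% of all promoters. A match is a description of letters and does not show that a factor binds.

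MicroRNA hairpins lay in wide regions in 18 of 919 autosomal cases (1.96%), against 101 (11%) in regions of any width. The cluster of Mir23a, Mir27a and Mir24-2 lay within 1 region of 5786 bp on chromosome 8 from 84207200 to 84212985, next to Zswim4. For each hairpin the mature strand named 3p is shown with the seed, bases 2 to 8, in capitals (RefSeq, GRCm38.p6). The opposite mature strands are not shown.
miR-23a-3p: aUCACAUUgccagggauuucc
miR-27a-3p: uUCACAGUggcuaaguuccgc
miR-24-3p: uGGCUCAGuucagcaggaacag
The 3 seeds differ from one another. Mir3074-2 lies opposite Mir24-2 in the same region. Further hairpins in wide regions were Mir330 at Eml2 (3809 bp), Mir3109 at Anxa2 (5510 bp) and Mir6935 at Actg1 (5482 bp). These were chosen after the overlaps were seen.

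Wide regions had more peaks around them than narrower ones. Within 50 kb of their edges lay a median of 7 other peaks (quartiles 4 and 10), against 5 (2 and 8) for narrower regions and 5 (3 and 8) for those of 1000 to under 2500 bp. The nearest peak was a median of 2404 bp away, against 4968 bp, and another peak lay within 1 kb of 503 wide regions (33.0%) and of 20.9% of the narrower ones. Adjacent peaks in the list were as little as 1 bp apart, so some of the wide regions are parts of a longer open stretch, as at Emp1 and Col17a1. Stretches of 20 or more peaks held 57 wide regions (3.74%) and 1.36% of the narrower ones.

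A minority of wide regions, 260 (17.1%), named no protein-coding gene. The other 82.9% named at least 1, as did 56.4% of narrower regions. Their median distance to the nearest protein-coding gene was 22320 bp, 79 lay over 50 kb away, and 96 overlapped a gene of another kind. Beside the loci near chromosome starts and the Neat1 and Malat1 locus, examples were 4801 bp on chromosome 3 from 88512141 to 88516941, 2209 bp from the nuclear lamina gene Lmna, and 4524 bp on chromosome 13 from 55186699 to 55191222, 17940 bp from the receptor gene Fgfr4. Both were chosen after their values were seen.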

How the data were processed

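Per the labels' protocols, ATAC-seq libraries were made with a Nextera kit from sorted cells, 1 library per genotype in 2 runs each (4 runs, grouped by the genotype label). The authors deposited 1 list of regions, whose values are start and end positions in base pairs with no other unit. The submitters' processing notes name Bowtie2, MACS2, bedtools and the mm10 build. Their settings and versions, and whether reads were pooled or shifted, were not given in the sources used here; width depends on all of these. There were no unused columns of per-sample values (0).

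Starts were converted to 1-based positions, and the regions, genes and stretches were found with Python 3.11.15 and pandas 2.3.3; overlaps were tested on simulated data. Genes came from a RefSeq table of GRCm38.p6, the assembly of mm10, starts and promoters from a second RefSeq table, and a shared base counted as overlap. The regions, gene lists and rules were chosen with earlier results of these data known, and 1 list of 30 was added after the widths had been seen. Genes on sex chromosomes were left out of the lists. Named were the 20 widest regions, genes with 4 or more wide regions, all named members of the bulge factor, basal keratinocyte and immediate early lists, up to 4 members of other lists, and 3 regions on either side of the minimum; others named were chosen after their values were seen, and some named by the rule are not reported here. Alternatives were other widths, stretch rules, gene extensions, flanks and definitions of a start. Depth is unknown, and intervals (95%) cover counting error only. Those of gene lists treat genes as independent, although neighbouring genes can share a region. The planned descriptions used no test.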

Additional observations from a re-analysis of the deposited data

How the results depend on the processing

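Of 175 alternative values, 161 stayed within the exact binomial interval of a share or within 1.5 times a count or difference. None (0) changed direction, but most were shares or counts, which cannot. The intervals of short lists are wide, so staying inside them says little. The Iroquois share, for example, stayed inside at both 83.3% (minimum of 2000 bp) and 16.7% (3000 bp). With a minimum of 2000 bp there were 3468 regions and 2824 named genes, and with 3000 bp there were 736 regions and 677 genes, against 1524 and 1325. At 2000 bp, 2824 of all 20665 genes were named. The named share was then 80.5% for immediate early genes, 59.3% for actin and adhesion genes and 11.9% for Zfp genes. At 3000 bp, with 677 of 20665 genes named, it was 0% for sebaceous gland and for melanocyte genes. Counting only listed starts inside a wide region, it was 0% for melanocyte and for Iroquois genes, of which 8 and 3 had a listed start. Over all genes with a listed start it was 4.98%. The difference in median CpG ratio between promoters in wide regions and all others, 0.207, was 0.006 against genes with a peak over the start, and the difference in median number of nearby peaks, 2 within 50 kb, was 1.0 within 20 kb. The share of wide regions at a start was 41.9% by midpoint within 1 kb, an alternative chosen after seeing the data, and 48.8% without regions starting below position 3.5 Mb, chosen likewise. Depth, genotype and replicate spread could not be assessed from coordinates. No paired analysis was possible because the 1 list has no column for any sample.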
